A study of Sus scrofa with 70 samples.

Results

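Mucins are long secreted or membrane-bound proteins whose serine and threonine residues carry dense O-linked sugar chains. The chains are started in the Golgi by polypeptide N-acetylgalactosaminyltransferases (the GALNT enzymes), turned into core structures and branched by the core 1 enzyme C1GALT1 and the GCNT enzymes, lengthened by the B3GNT enzymes, and often capped with sialic acid by the ST3GAL and ST6GALNAC sialyltransferases. In the boar, the bulbourethral gland is known as a mucous gland and supplies the viscous, sialic acid-rich gel of the ejaculate, and the epididymis and other glands line their ducts with membrane mucins. The genes described here were all those whose name in the merged annotation begins with MUC and a digit, GALNT, GCNT, C1GALT1, B3GNT, ST3GAL or ST6GALNAC. The rule uses names alone. It found 49 of the 42873 annotated genes, and all 49 were among the 35552 genes of the expression table. They are 20 GALNT genes, 9 B3GNT genes, 6 ST3GAL genes, 5 GCNT genes, 5 ST6GALNAC genes and the mucins MUC2, MUC6, MUC13 and MUC15. No gene carried the name C1GALT1. Several mucins have no symbol in this annotation, so 11 unnamed entries were placed by overlap with RefSeq genes on the same strand, 10 of which are in the expression table. These loci, MUC5B among them, were added after their values were seen, are called loci throughout, and are not counted with the 49.

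RNA was taken from boars aged 12 months, from 3 accessory glands (bulbourethral, prostate and vesicular gland), the epididymis and the testis. The boars belonged to the Banna mini-pig inbred line (BMI), a line bred by close inbreeding, or to the Diannan small-ear pig (DSE), a local breed from Yunnan, and no animal had a stated treatment. Short-read RNA-seq comprised 30 libraries, 3 per breed and gland, and full-length Iso-seq comprised 10 libraries, 1 per breed and gland. Whether the 3 libraries of a group came from separate animals is not stated for each library, so p-values measure the spread between libraries, which may be technical. RNA-seq values are TPM, a level per transcript length that is scaled to the same total in each library, summed over the transcripts of a gene. The numbers of RNA-seq reads behind them are not kept in TPM. A gene was tested if it reached 1 TPM in at least 3 libraries, which 42 of the 49 genes did. A gene was called if limma gave a Benjamini-Hochberg adjusted p below 0.05 over all genes tested (19796 between glands and 12585 to 16319 between breeds within a gland) and a difference of at least 1 on the scale of log2(TPM + 1), which understates differences of low genes. In whole glands, fewer cells of a type and less RNA per cell cannot be told apart.

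The 5 genes with the clearest bulbourethral gland levels were placed on Sscrofa11.1 as follows, and the 250 bases before each start are shown because these genes were high together. They are written 5′ to 3′ on the strand of the gene. The MUC5B locus window is chr2:807435-807684 (plus strand, before the RefSeq start). The others lie before the most upstream annotated start near that of the leading transcript in the bulbourethral gland, at chr12:4890112-4890361 (plus) for ST6GALNAC1, chr9:53445341-53445590 (plus) for ST3GAL4, chr1:240595144-240595393 (plus) for GALNT12 and chr14:60141377-60141626 (minus) for GALNT2. Capitals mark matches, on either strand, to the motifs searched.
MUC5B locus: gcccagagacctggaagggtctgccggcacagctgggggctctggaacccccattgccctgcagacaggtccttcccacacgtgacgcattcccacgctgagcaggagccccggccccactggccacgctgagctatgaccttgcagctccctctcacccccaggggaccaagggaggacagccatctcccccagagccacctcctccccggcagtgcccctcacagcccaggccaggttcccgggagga
ST6GALNAC1: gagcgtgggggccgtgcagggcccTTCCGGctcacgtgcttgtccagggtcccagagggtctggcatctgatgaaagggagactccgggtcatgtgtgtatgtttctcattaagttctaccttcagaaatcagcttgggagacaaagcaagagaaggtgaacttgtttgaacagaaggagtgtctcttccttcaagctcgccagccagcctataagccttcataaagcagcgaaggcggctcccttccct
ST3GAL4: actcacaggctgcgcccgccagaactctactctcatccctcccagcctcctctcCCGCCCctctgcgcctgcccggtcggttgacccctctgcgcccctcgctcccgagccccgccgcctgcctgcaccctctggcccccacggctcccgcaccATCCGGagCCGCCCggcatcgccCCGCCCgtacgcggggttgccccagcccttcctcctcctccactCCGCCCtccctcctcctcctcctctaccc
GALNT12: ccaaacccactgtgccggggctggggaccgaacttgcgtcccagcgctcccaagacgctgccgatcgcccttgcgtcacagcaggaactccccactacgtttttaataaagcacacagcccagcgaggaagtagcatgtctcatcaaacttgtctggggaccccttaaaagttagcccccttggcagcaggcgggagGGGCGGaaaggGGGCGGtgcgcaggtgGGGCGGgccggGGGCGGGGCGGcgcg
GALNT2: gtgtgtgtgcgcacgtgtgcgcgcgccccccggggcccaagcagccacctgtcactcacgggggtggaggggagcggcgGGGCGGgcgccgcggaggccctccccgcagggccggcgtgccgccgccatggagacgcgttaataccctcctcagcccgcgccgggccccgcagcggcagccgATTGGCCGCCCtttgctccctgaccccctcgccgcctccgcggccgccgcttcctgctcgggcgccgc

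The motifs searched on both strands were a GC box (GGGCGG) and, of core promoter elements, the CCAAT box, with the letters CCAAT, and a TATA box (TATAAA). They also comprised a forkhead motif (TGTTTAC), 2 ETS family motifs (CCGGAA and CCGGAT) and an unfolded protein response element (TGACGTGG). The GC box was present in 3 of the 5 windows, with 4 matches in ST3GAL4, 5 in GALNT12, where the last 2 overlap, and 2 in GALNT2. It occurs in 50.4% of the 19325 promoters of the same length. The CCAAT box was found in GALNT2, where it adjoins a GC box without overlap, and occurs in 32.4% of promoters. ST6GALNAC1 held CCGGAA (16.3% of promoters) and ST3GAL4 held CCGGAT (6.82%). TATAAA (8.31%), TGTTTAC (2.32%) and TGACGTGG (0.59%) were in none of the 5 windows, and the MUC5B locus window had no match to any of the 7 motifs. GC content was 54% for ST6GALNAC1, 65.2% for GALNT12, 68.4% for the MUC5B locus, 74% for ST3GAL4 and 78.8% for GALNT2, beside a median of 59.6% over all promoters. No motif was shared by all 5 windows.

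Some libraries stood apart from their label and bear on the values below. The RNA-seq library BMI prostate gland 2 held the vesicular gland transcripts PSP-I, a spermadhesin, at 169569 TPM and AWN at 52018 TPM, against 1.04 to 9.20 TPM and 0.225 to 2.9 TPM in the other 5 prostate gland libraries. Its levels of the prostate genes MSMB (88607 TPM) and HOXB13 (92.7 TPM) were below the 102927 to 178304 TPM and 264 to 297 TPM of the others. The BMI prostate gland Iso-seq library likewise had 4029 full-length reads of PSP-I and 3 of HOXB13, while the DSE one had 0 and 218. BMI epididymis 1 and DSE epididymis 2 carried PSP-I at 2392 and 174 TPM. These 3 RNA-seq libraries, whose 4 vesicular gland markers summed to over 1000 TPM, were left out in an alternative fit chosen after seeing the data. Lower sums were found in DSE epididymis 3 (216 TPM) and BMI bulbourethral gland 2 (151 TPM). Skeletal muscle markers summed to 1300.2 TPM in DSE bulbourethral gland 3, 391 TPM in BMI bulbourethral gland 1 and 615 TPM in BMI epididymis 1, against 0 to 24.7 TPM in the other 4 bulbourethral gland libraries. Without these 3, 14 members were called higher and 8 lower in bulbourethral gland and 7 and 9 in epididymis. With all libraries the counts were 14 and 7 in bulbourethral gland and 7 and 8 in epididymis. The share of all genes called without these 3 was not taken. Epididymis libraries also differed in regional genes: LCN8 and RNASE10 were at 9677 and 10294 TPM in BMI epididymis 2 and at most 21.2 TPM in the other 5, and CRISP1 was 21.3 TPM in DSE epididymis 1 and 1100 TPM or more elsewhere. The part of the epididymis sampled is not given in the sources used here. Testis libraries held germ cell markers, as their label says, but DSE testis 2 stood apart. Its 6 germ cell markers summed to 24583 TPM against 72478 to 109933 TPM in the other 5 testis libraries, and its Leydig cell markers to 61438 TPM against 17754 to 31434 TPM.

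Of the 42 tested genes, 15 had their highest mean TPM in the epididymis and 11 each in the bulbourethral gland and the testis. The vesicular gland led for 4 genes and the prostate gland for 1. The 49 genes together made up 546 to 2271 TPM of a library. The bulbourethral gland libraries summed to 1599 to 2271 TPM, a range that only BMI epididymis 2 (1779 TPM) reached among the others. Summed by role, the GALNT genes reached 770 ± 85.9 TPM (SD, n = 6) in bulbourethral gland and 305 ± 88.6 to 415 ± 44.0 TPM in the other glands. With size factors the vesicular gland sum was 598 TPM, so the gap to the bulbourethral gland depends on the scaling. The ST3GAL genes reached 458 ± 67.9 TPM in bulbourethral gland, of which ST3GAL4 made up 406 TPM, and 14.8 ± 6.69 TPM in vesicular gland, with the other 3 glands between 49.9 and 67.8 TPM. Entries that join ST3GAL1 with a neighbouring gene are not in these sums, and with them the prostate gland sum was 114 ± 41.5 TPM and the bulbourethral gland sum 587 ± 106 TPM. The ST6GALNAC genes summed to 533 ± 183 TPM in bulbourethral gland and 76.6 ± 13.9 TPM in vesicular gland. The branching GCNT genes summed to 94.6 ± 45.4 TPM in vesicular gland, 93.8 TPM of it from GCNT1, and to 5.34 ± 2.25 TPM in bulbourethral gland. Their prostate gland sum was 13.1 ± 19.1 TPM with BMI prostate gland 2 and 5.32 ± 2.44 TPM (n = 5) without it, which differs from the bulbourethral gland sum by less than the spread between libraries. With an entry joining GCNT2 to a neighbouring gene added, the sums were 12.3 ± 4.44 TPM in bulbourethral and 20.1 ± 18.5 TPM in prostate gland (all 6 libraries). As deposited, the B3GNT genes were highest in epididymis (177 ± 61.2 TPM). With size factors their vesicular gland sum was 146 TPM instead of 90.2 TPM, which lies within that spread, so this order depends on the scaling. Several of these sums thus rested mainly on 1 gene, and the heat map shows all 49 genes library by library.

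**Figure D1:**
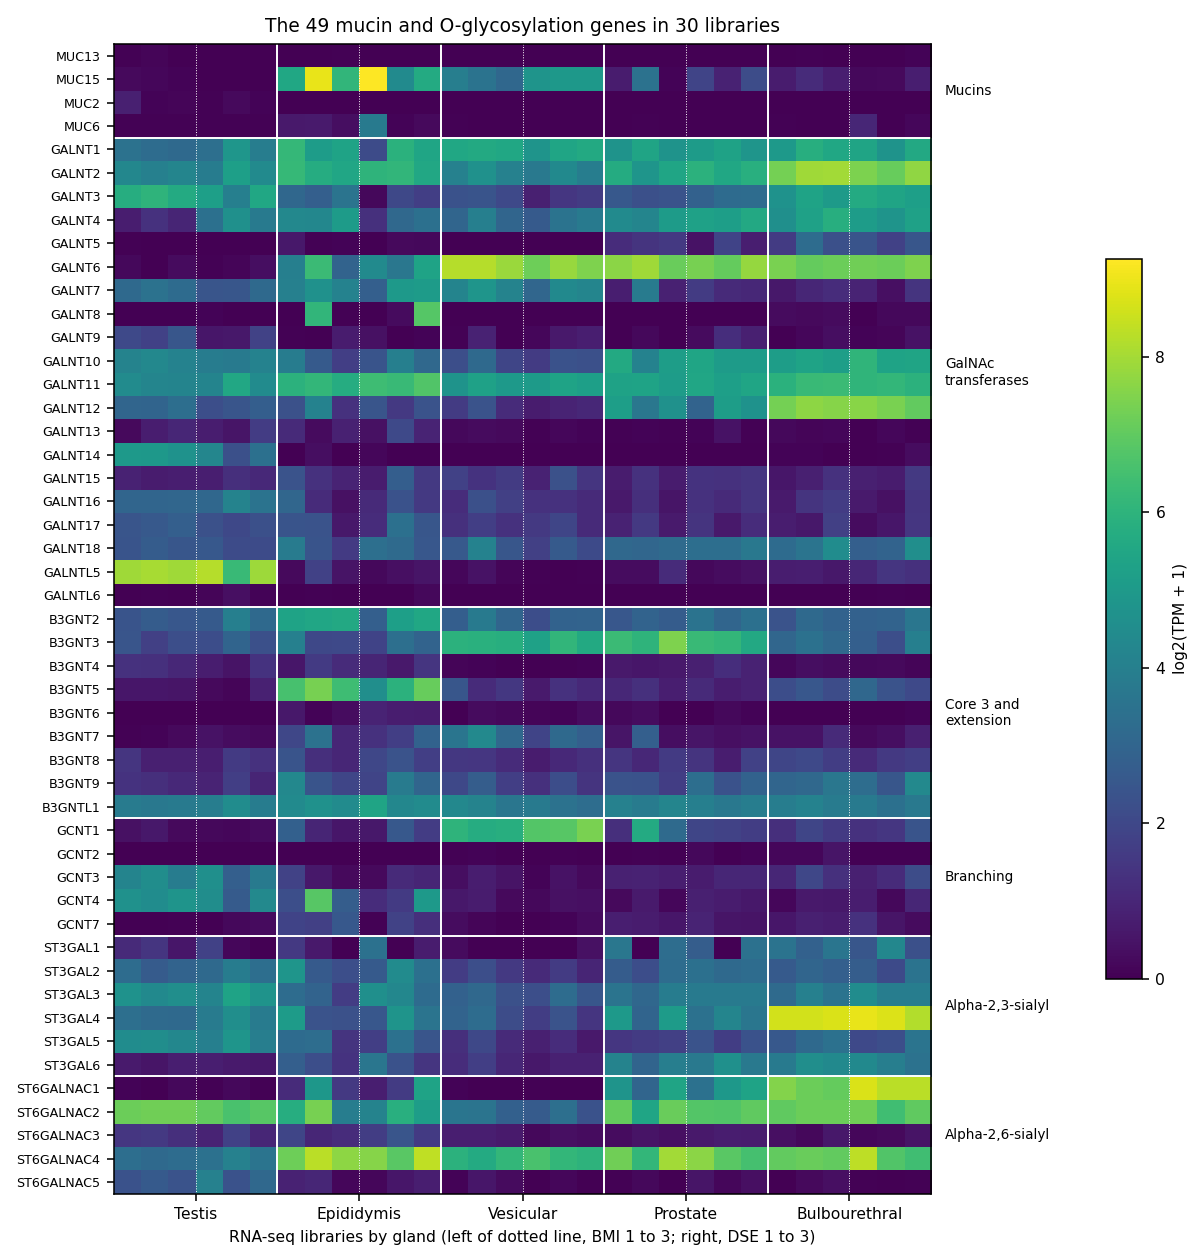
Heat map of log2(TPM + 1) for the 49 genes (rows, grouped by role) in the 30 RNA-seq libraries (columns, by gland, BMI to the left and DSE to the right of each dotted line). GALNTL5 and GALNT14 stand out in testis, B3GNT5 and MUC15 in epididymis, GCNT1 in vesicular gland, and ST6GALNAC1, ST3GAL4, GALNT12 and GALNT2 in bulbourethral gland.

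The bulbourethral gland combined a very high level of a gel-forming mucin locus with high levels of specific initiating and sialic acid-adding enzymes. MUC5B encodes a secreted mucin whose polymers form gels. Its locus was at 16125, 5376 and 6395 TPM in the 3 BMI and 19349, 11885 and 14669 TPM in the 3 DSE bulbourethral gland libraries. In the 24 libraries of the other glands it was at most 26.4 TPM, so the groups did not overlap (log2 difference 10.61, SE 0.28, adjusted p = 2.31e-19). Iso-seq gave 124 full-length reads in BMI and 925 in DSE bulbourethral gland, and 3 reads in the other 8 libraries together. The 26 isoforms of the locus were 1998 to 7034 bases long, and the leading transcript, at chr2:837431-842095, covers only the end of the locus at chr2:808058-842241. It carried 22.8% of the locus TPM on average, and 2.78% to 47.9% by library, so how reads were shared among 31 transcripts bears on the TPM. An opposite-strand entry at the locus stood at 324 to 2183 TPM in the same libraries. The counting is not stated to use strand, so the reads of both entries cannot be told apart.

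In bulbourethral gland, set against the mean of the 4 remaining glands, 14 of the 42 genes tested were called higher and 7 lower, against 8.45% and 12% of all genes tested. The 4 genes whose 6 libraries all lay above the other 24, which 1.66% of all genes tested did, belong to 3 steps of the pathway. ST6GALNAC1 adds sialic acid in alpha-2,6 linkage to the first sugar of the chain and is known for making the sialyl-Tn structure. It ranged from 132 through a median of 247 to 423 TPM, and was at most 41.7 TPM in the other glands (log2 difference 6.05, SE 0.48). ST3GAL4 adds sialic acid in alpha-2,3 linkage to galactose at chain ends. Its lowest, median and highest levels were 291, 409 and 489 TPM, against at most 32.8 TPM elsewhere (5.28, SE 0.34). GALNT12 and GALNT2 are initiating enzymes. GALNT12 ranged from 130 through 179 to 206 TPM, with at most 35.8 TPM elsewhere (4.73, SE 0.30), and GALNT2 from 136 through 190 to 251 TPM, with at most 72.7 TPM elsewhere (2.61, SE 0.17). Adjusted p-values of these 4 genes were 3.85e-10 (ST6GALNAC1), 8.87e-12 (ST3GAL4), 6.55e-12 (GALNT12) and 1.03e-11 (GALNT2).

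**Figure D2:**
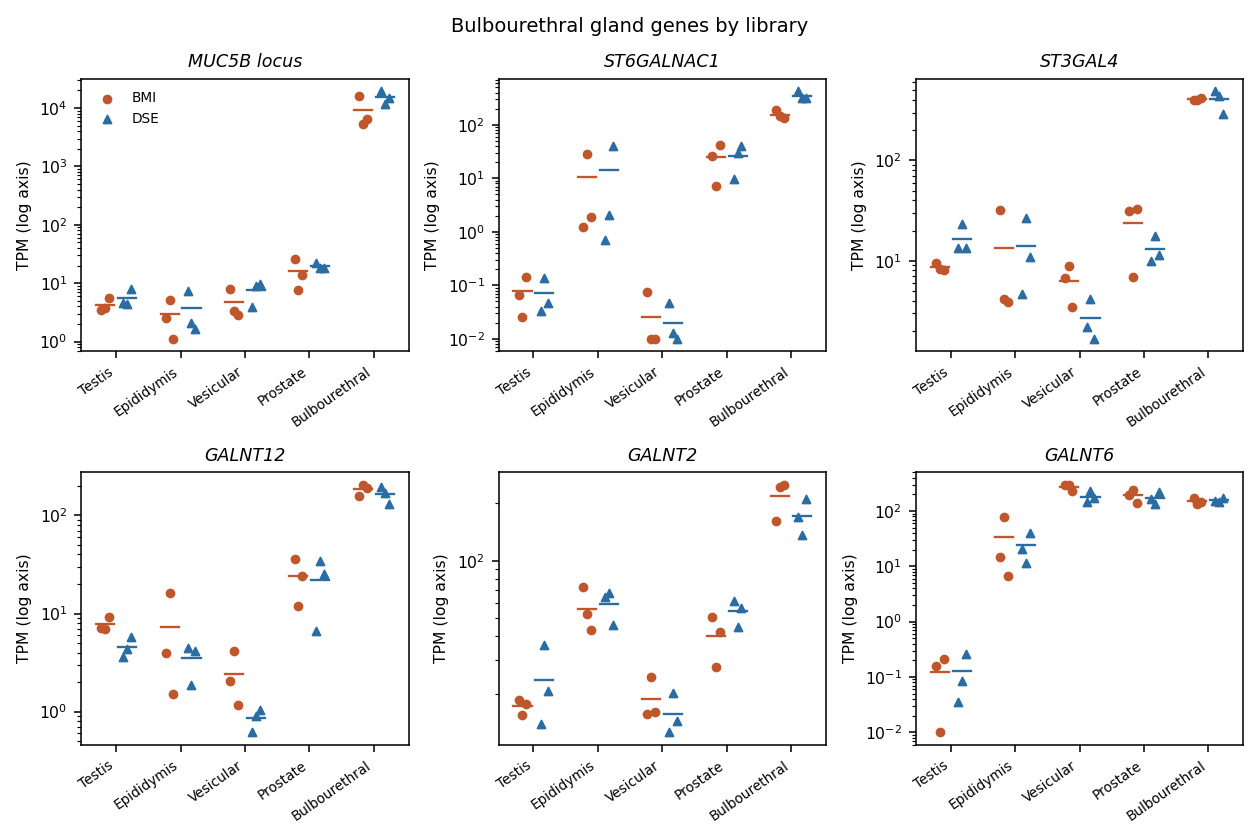
TPM on a log axis (values below 0.01 drawn at 0.01) of the MUC5B locus and 5 enzymes in each RNA-seq library by gland, circles for BMI, triangles for DSE, and short lines for the mean of 3 libraries. The 6 bulbourethral gland libraries lie above all others for MUC5B, ST6GALNAC1, ST3GAL4, GALNT12 and GALNT2, whereas GALNT6 is high in all 3 accessory glands.

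Full-length reads, scaled to 1000000 reads per library (RPM), were also most numerous in bulbourethral gland for these 4 enzymes. ST6GALNAC1 had 31 reads in BMI and 37 in DSE bulbourethral gland and 0 in the other 8 libraries. ST3GAL4 had 183 and 100 reads there and 0 to 4 elsewhere. GALNT2 had 314 and 199 reads there, 142 in BMI epididymis and 8 to 40 in the others. GALNT12 had 468 and 385 reads in bulbourethral gland, but also 423 reads in BMI epididymis, or 922 RPM against 82.1 RPM (19 reads) in DSE epididymis. In RNA-seq, BMI epididymis was at 3.92, 16.4 and 1.52 TPM of GALNT12, so the Iso-seq level of that single library has no counterpart among the RNA-seq libraries. With 1 Iso-seq library per group, no difference between these counts was tested.

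The other 10 higher genes overlapped other glands. Among GALNT genes these were GALNT6 (log2 difference 2.29), GALNT3 (2.20), GALNT5 (1.95), GALNT10 (1.83) and GALNT4 (1.55), making 7 of 18 tested GALNT genes higher and 2 lower. ST3GAL6 (2.14) and ST3GAL1 (2.12) brought the ST3GAL genes to 3 higher and 0 lower of 6, and ST6GALNAC2 (1.46) and ST6GALNAC4 (1.04) brought the ST6GALNAC genes to 3 higher and 0 lower of 5. The call for ST6GALNAC4 was lost without BMI prostate gland 2 (0.97) and with size factors (0.81). Of the chain-lengthening genes, B3GNT9 was higher (1.21), while B3GNT3 (log2 difference -1.16) and B3GNT7 (-1.0) were lower. Both called GCNT genes were lower, GCNT4 (-1.57) and GCNT1 (-1.06), and without BMI prostate gland 2 GCNT1 (-0.92) and B3GNT7 (-0.90) were no longer called. MUC15, GALNT7 and GALNTL5 complete the 7 lower genes, with differences of -2.48, -2.33 and -1.26. The core 1 enzyme was measured at its RefSeq-placed loci: C1GALT1 stood at 1.02 to 5.26 TPM in bulbourethral gland and was called lower (-1.75), whereas its chaperone C1GALT1C1 stood at 24.3 to 51.4 TPM and was called higher (1.12).

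Genes that supply the sugars were read as lists beside the members. Sugar nucleotides are made in the cytosol and nucleus and carried into the Golgi by SLC35 transporters. In bulbourethral gland, 8 of 14 sugar nucleotide genes were higher and 0 lower, with a median difference of 1.24 against -0.05 over all genes. GNE, the key enzyme of sialic acid synthesis, was at a mean of 160 TPM against 16.3 TPM in the other glands (3.62, SE 0.22). Of 6 Golgi transporters 3 were higher, among them the CMP-sialic acid transporter SLC35A1 (54.6 against 12.0 TPM, 2.17). Of 24 other transferases tested, 5 were higher and 3 lower. The partners of mucous cells were higher for 9 of 11 tested, with a median difference of 4.70. These lists were chosen with earlier results of these libraries known, so their counts are a description and no independent evidence. Some mucous cell partners were not tested because they were absent or did not reach 1 TPM in at least 3 libraries. A gene low elsewhere could thus enter only through a gland where it was high, so these counts were partly set by the filter. TFF3, a trefoil peptide that is secreted with mucins, reached 10738 TPM against 1.73 TPM (12.71, SE 0.36), AGR2, a disulfide isomerase needed for mucin folding, 12397 against 235 TPM (8.45, SE 0.57), and CLCA1, a secreted protease of mucus, 500 against 0.264 TPM (7.91, SE 0.28). Of the 55 genes tested in the 4 lists, 45.5% were higher in bulbourethral gland, against 8.45% of all genes. The share was 16.4% in prostate gland (3.69% of all genes), 12.7% in epididymis (15.1%), 7.27% in testis (34.6%) and 3.64% in vesicular gland (2.95%). Of the plasma cell markers, JCHAIN was at 15.2 to 279 TPM in bulbourethral gland and at most 12.6 TPM elsewhere. MZB1 was at 2.04 to 11.4 TPM in bulbourethral gland and reached 27.3 TPM in BMI epididymis 2. The part of plasma cells in these results was not tested.

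In the epididymis, a membrane mucin and a chain-lengthening enzyme had the largest positive differences among the members. Of the 42 genes, 7 were higher and 8 lower there, against 15.1% and 6.56% of all genes tested, so the higher count was close to its share. With 1 library left out the lower count was 5 to 11, and with a pseudocount of 0.1 the higher count was 11. B3GNT5, which starts the lacto-series chains of glycolipids, was the only higher gene whose 6 libraries all lay above the other 24, as those of 2.77% of all genes tested did. It ranged from 22.9 through 88.0 to 161 TPM, with at most 7.55 TPM in the other glands (log2 difference 5.02, SE 0.24, adjusted p = 3.13e-14). MUC15, a membrane-bound mucin, was at 45.2, 490 and 67.4 TPM in BMI and at 610, 20.3 and 49 TPM in DSE (5.03, SE 0.50, adjusted p = 1.24e-08). One library of each breed was thus several times above the rest, and the lowest, DSE epididymis 2, overlapped the vesicular gland, where MUC15 reached 29.9 TPM. Of the 4 named mucins, MUC15 was the only one tested. MUC2 and MUC13 stayed below 1 TPM in every library. Iso-seq had 2344 MUC15 reads in BMI and 170 in DSE epididymis, and the BMI figure was most of the 3847 reads of all 49 genes in that library.

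The remaining higher genes in epididymis were B3GNT2, the main polylactosamine-extending enzyme (2.04), GALNT7, which acts on already glycosylated peptides (1.88), GCNT4 (1.82), ST6GALNAC4 (1.74) and GCNT7 (1.15). ST6GALNAC4, which sialylates the inner sugar of sialylated core 1 chains, had its highest mean here and ranged from 118 through 197 to 333 TPM. It did not differ beyond the spread from prostate gland (log2 difference 0.60, adjusted p = 0.13) or bulbourethral gland (0.56, adjusted p = 0.18). With Ensembl transcripts alone its difference against the other glands was -0.11. GALNT11 was the GALNT gene with the highest mean, 52 to 106.6 TPM, and was not called. Several genes were spread widely over the 6 libraries: GCNT4 ranged from 1.25 to 114 TPM, GALNT3 from 0.154 to 10.9 TPM, and GALNT1 from 3.34 to 70.7 TPM. DSE epididymis 1 had the lowest level of GCNT4, GALNT3, GALNT1, B3GNT2 and B3GNT5, and BMI epididymis 2 the highest level of GCNT4 and B3GNT5. These are libraries with unusual LCN8, RNASE10 or CRISP1 levels as given above, and the part of the sampled region in these values was not tested. Summed smooth muscle markers ranged from 1888 to 17031 TPM over the 6 epididymis libraries. In the paper, DSE epididymis 1 also had the lowest median transcript integrity of all RNA-seq libraries, and the part of RNA quality was not tested. Of the genes outside the members, B4GALT4, a galactosyltransferase of chain extension (48.5 against 7.45 TPM, 2.63), and GAL3ST3, a galactose sulfotransferase (11.5 against 0.379 TPM, 2.59), had all 6 libraries above the other 24.

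Without the 3 libraries whose vesicular gland markers summed to over 1000 TPM, B3GNT5 and MUC15 stayed called in epididymis. GALNT6 was then no longer called lower (-0.89), while B3GNT7 was called higher (1.08) and GCNT3 lower (-1.15).

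In the vesicular gland, GCNT1, the enzyme that makes core 2 branches, had the largest positive difference among the members. GCNT1 ranged from 52.7 through 86.1 to 168 TPM, and all 6 libraries lay above the other 24 (log2 difference 4.91, SE 0.38, adjusted p = 3.31e-10). The next library was BMI prostate gland 2, at 49.7 TPM, while the other 5 prostate gland libraries had 1.39 to 8.12 TPM. Iso-seq showed 173 reads in BMI and 747 in DSE vesicular gland. It also had 533 reads in BMI prostate gland, the library that held PSP-I reads, and 11 in DSE prostate gland. All libraries with high GCNT1 were thus vesicular gland libraries or ones that held vesicular gland transcripts.

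Across the 42 genes, 6 were higher and 17 lower in vesicular gland, against 2.95% and 30.1% of all genes tested. The median of all genes was itself -0.69, and the members' median was -0.66. The 10 most abundant transcripts took 47.3% to 64.7% of TPM in these libraries. Dividing TPM by size factors moved the median of all genes from -0.69 to -0.20 and gave 8 higher and 13 lower members. The higher genes besides GCNT1 were GALNT6 (2.96), B3GNT7 (2.23), B3GNT3 (2.17), MUC15 (1.98) and GALNT7 (1.71). GALNT6 is an initiating enzyme and was the leading GALNT gene of both vesicular and prostate gland. It had 146 through 228 to 300 TPM in vesicular gland, and its levels there, in prostate gland (133 through 181 to 241 TPM) and in bulbourethral gland (135 through 149 to 174 TPM) did not differ beyond the spread (differences of 0.22 to 0.53, adjusted p of 0.23 to 0.82). All 6 ST3GAL genes were called lower, of which ST3GAL2 (-0.98) and ST3GAL3 (-0.41) lost the call with size factors. ST6GALNAC2, which sialylates core 1 chains, ranged from 4.03 through 7.80 to 11.2 TPM and lay below all other libraries (-3.45, SE 0.31, adjusted p = 2.78e-09). ST6GALNAC1 was at 0 to 0.0761 TPM. Among the RefSeq-placed loci, the membrane mucins MUC20 (39.4 to 109 TPM, 3.58) and MUC1 (39.2 to 94.3 TPM, 1.32) were higher. MUC20 overlapped epididymis alone, and MUC1 overlapped epididymis, prostate gland (24.2 to 67.3 TPM) and bulbourethral gland (44.9 to 63.2 TPM).

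**Figure D3:**
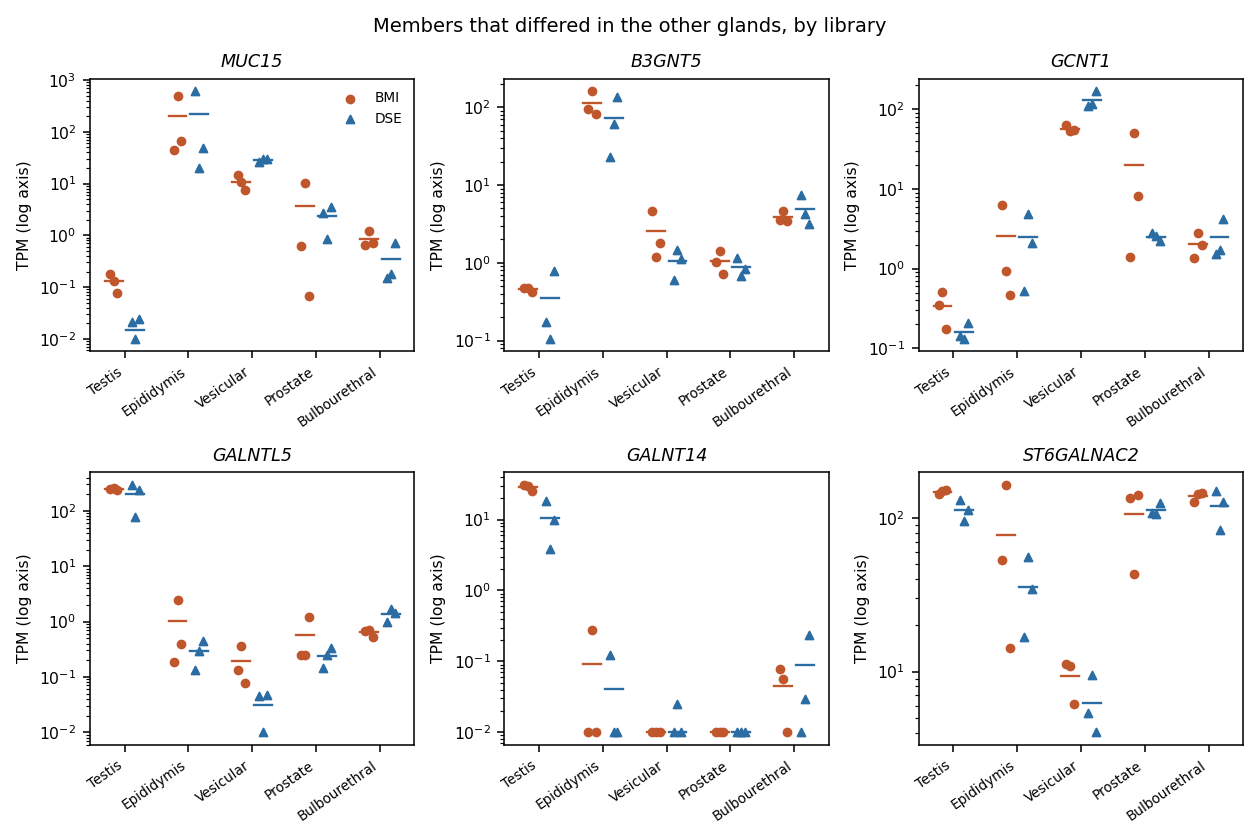
TPM on a log axis (values below 0.01 drawn at 0.01) of 6 members in each RNA-seq library by gland, circles for BMI, triangles for DSE, and short lines for the mean of 3 libraries. MUC15 and B3GNT5 are highest in epididymis, GCNT1 in vesicular gland with BMI prostate gland 2 close below at 49.7 TPM, GALNTL5 and GALNT14 in testis, and ST6GALNAC2 is lowest in vesicular gland.

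In the prostate gland, 7 of the 42 genes were higher and 6 lower, against 3.69% and 12.8% of all genes tested. None of the 42 had all 6 libraries above the other 24, as 0.172% of all genes tested did. B3GNT3, which extends core 1 chains, ranged from 47.1 through 72.4 to 176 TPM (log2 difference 2.81, SE 0.27, adjusted p = 1.56e-08). It did not differ beyond the spread from vesicular gland (0.52 higher, adjusted p = 0.28). GALNT6 (2.57), ST6GALNAC1 (1.86), ST3GAL6 (1.84), GALNT10 (1.41), GALNT4 (1.32) and ST6GALNAC2 (1.08) were the other higher genes. ST6GALNAC1 had 7.19 through 27.9 to 41.7 TPM, the level nearest to bulbourethral gland. ST6GALNAC4 was the leading ST6GALNAC gene and was not called (0.98). When BMI prostate gland 2 was left out, a fit for which the share of all genes was not taken, 10 genes were higher and 7 lower. ST3GAL1 (1.49), ST6GALNAC4 (1.23) and GALNT12 (1.13) were then also higher and B3GNT7 lower (-1.07). The difference of GCNT1 was then -0.46, having been above 0 with all libraries. Of the mucous cell partners, 3 of 11 were higher in prostate gland, SPDEF, CREB3L4 and AGR2, with AGR2 at a mean of 801 TPM.

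In the testis, the members above all libraries of the other glands were GALNTL5, GALNT14, GCNT3 and a pair of sialyltransferases. Of the 42 genes, 12 were higher and 15 lower, against 34.6% and 12.7% of all genes tested. None of the 8 B3GNT genes tested was higher and 4 were lower. GALNTL5, a GALNT-like protein of spermatids without known transferase activity, was at 246, 264 and 242 TPM in BMI and 298, 77.1 and 236 TPM in DSE, and at most 2.45 TPM elsewhere (log2 difference 7.18, SE 0.20, adjusted p = 2.64e-20). GALNT14, an initiating enzyme, ranged from 3.81 through 21.7 to 31.1 TPM, with at most 0.272 TPM elsewhere (4.06, SE 0.15). GCNT3, a branching enzyme of core 2 and core 4, ranged from 5.95 through 15.3 to 23.4 TPM (3.09, SE 0.23). The sialyltransferases ST6GALNAC5 (4.01 to 15.6 TPM, 2.52) and ST3GAL5, the GM3 ganglioside synthase (14.4 to 27.1 TPM, 2.24), completed the 5 genes above all 24 other libraries, a pattern of 23.3% of all genes tested. Iso-seq had 171 and 269 GALNTL5 reads in the BMI and DSE testis and 0 in the other 8 libraries, and likewise 22 and 27 against 0 for GALNT14.

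Overlapping genes higher in testis were GCNT4 (3.06), GALNT3 (2.36), GALNT16 (2.02), ST6GALNAC2 (1.49), ST3GAL3 (1.27), GALNT9 (1.24) and GALNT17 (1.01). GALNT3, known for glycosylating FGF23, did not differ beyond the spread between testis and bulbourethral gland (0.13, adjusted p = 0.68). The largest lower difference was that of GALNT6, at 0 to 0.261 TPM (-6.59, SE 0.28), followed among genes below all other libraries by ST6GALNAC4 (7.89 through 9.59 to 15.7 TPM, -3.51, SE 0.25). The 6 epithelial markers summed to 14.9 to 42.3 TPM in testis and to 806 to 3282 TPM in the other glands, and their part in the lower calls was not tested. MUC15 was at most 0.182 TPM in testis. With Ensembl transcripts alone, GALNTL5 (0.68), GCNT3 (0.15), ST3GAL3 (0.19) and ST6GALNAC4 (-0.59) lost their calls and GCNT4 turned to -0.49, so these testis values rest on transcripts added from Iso-seq. The RefSeq-placed locus MUC4 was at 8.71 to 29.6 TPM in testis and at most 4.46 TPM elsewhere (3.54), with 99.1% of its TPM in a single Iso-seq transcript at the end of the locus. MUC4 overlaps MUC20 on the opposite strand.

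Several related genes lie side by side, and their levels were alike in some glands and unlike in others. The RefSeq-placed locus ST6GALNAC6, 2223 bases from ST6GALNAC4 on chromosome 1, had a mean close to that of ST6GALNAC4 in testis (10.4 TPM for each) and in bulbourethral gland (122.8 and 152 TPM). Its mean was below that of ST6GALNAC4 in epididymis (77.6 and 217 TPM), vesicular gland (25.4 and 68.1 TPM) and prostate gland (32.0 and 146 TPM). ST6GALNAC1 and ST6GALNAC2 are 29304 bases apart on chromosome 12, and both were high in bulbourethral gland (means of 251 and 130 TPM). In testis ST6GALNAC2 was at 96.2 to 152 TPM and ST6GALNAC1 at most 0.142 TPM. GALNTL5 and GALNT11 are 5677 bases apart on chromosome 18, and GALNT11 was at 17 TPM or more in every library. The gel-forming mucins MUC6, MUC2, MUC5AC and MUC5B lie in a row on chromosome 2. Of these, the MUC5AC locus reached 4.41 TPM in bulbourethral gland, and MUC2 was below 1 TPM in all 30 libraries, whereas the MUC5B locus was at 5376 TPM or more in each bulbourethral gland library.

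Isoforms were read from the 10 Iso-seq libraries, which held 231413 to 458697 full-length reads each. The 49 genes had 12960 reads in 330 isoforms of 42 genes. Of the isoforms, 25 matched an annotated transcript fully, 65 combined known splice sites in ways not annotated and 191 used at least 1 splice site not annotated. Reads of all 49 genes ran from 1839 RPM in DSE prostate gland to 8387 RPM in BMI epididymis. These counts leave out isoforms that join a member with a neighbouring gene, chiefly 2530 reads that join GALNT6 with CELA1, where GALNT6 alone had 120 reads. With all joined isoforms added, reads ran from 1927 RPM in BMI testis to 9281 RPM in BMI epididymis, and DSE prostate gland had 2842 RPM. Of 31 genes with at least 20 reads, 21 had the same leading gland in both readouts. These are counts of single libraries, and their intervals cover counting error only.

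**Figure D4:**
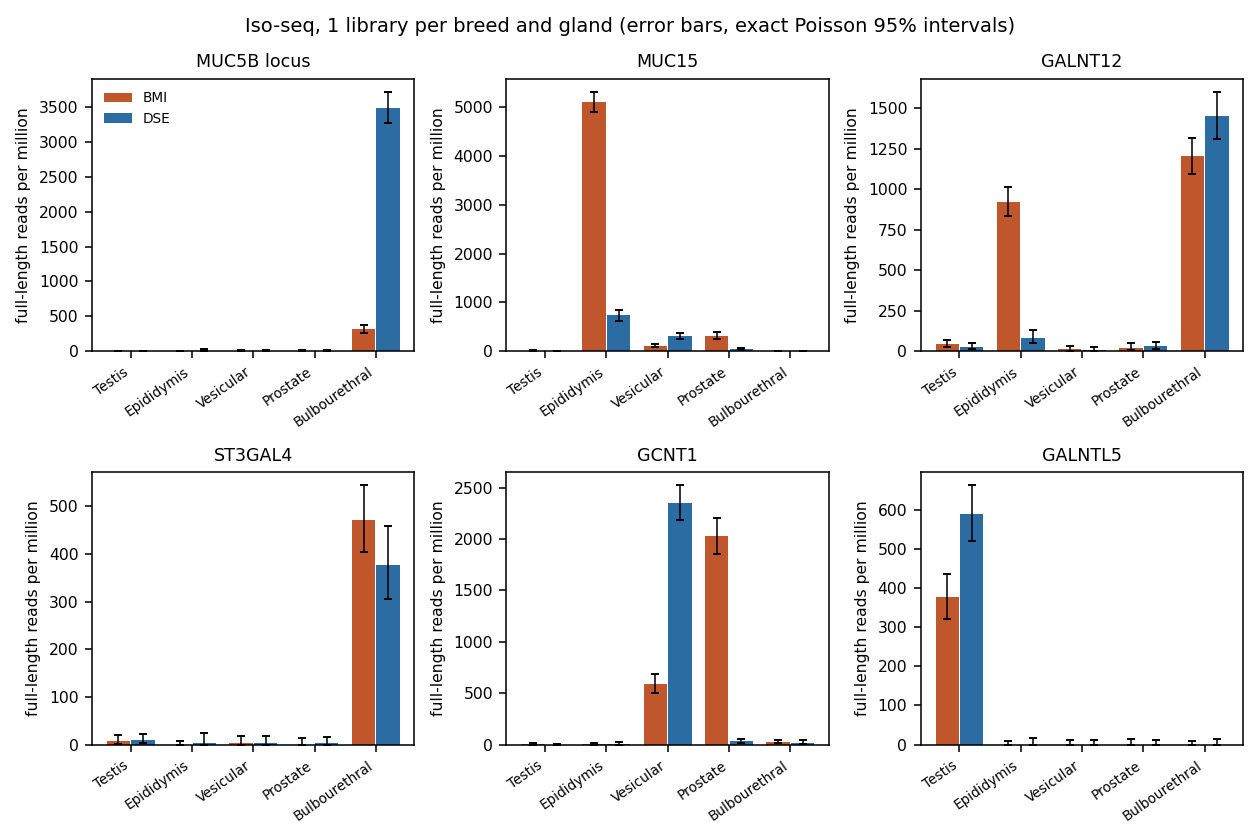
Full-length reads scaled to 1000000 per library (RPM) in the 10 Iso-seq libraries by gland, orange for BMI and blue for DSE, with exact Poisson 95% intervals. GALNT12 has reads in BMI epididymis (922 RPM) besides bulbourethral gland, and GCNT1 in BMI prostate gland (533 reads) besides vesicular gland.

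Between the breeds, DSE was compared with BMI within each gland, 3 libraries against 3, among 28 to 34 members per gland that reached 1 TPM in 3 of the 6 libraries. A single member was called in 1 gland. GALNT4, an initiating enzyme that prefers glycosylated peptides, was at 0.685, 1.5 and 0.934 TPM in BMI testis and at 9.81, 24 and 13.0 TPM in DSE testis (log2 difference 2.95, SE 0.35, adjusted p = 0.0157), where 0.582% of all genes tested were called. All DSE libraries lay above all BMI libraries, and 24.8% of all genes tested in testis did not overlap in 1 direction or the other. The level came from 2 Iso-seq transcripts, at 10.5 ± 5.53 and 5.04 ± 2.02 TPM in DSE against 0.783 ± 0.398 and 0.0426 ± 0.0737 TPM in BMI, while the Ensembl transcript was at 0.0796 ± 0.0946 TPM in DSE and 0.215 ± 0.154 TPM in BMI. GALNT4 overlaps POC1B on the same strand. POC1B went the other way, with 42.4, 46.0 and 44.3 TPM in BMI and 34.7, 22.2 and 37.4 TPM in DSE testis. Summed, both genes differed by 0.06 (adjusted p = 0.906). The call was also lost without any 1 of the BMI testis libraries, without the filter on low values and with Ensembl transcripts alone. It was kept with a pseudocount of 0.1 (3.75), size factors (2.85) or a replicate block (2.95), and without each DSE testis library in turn (2.61 to 3.22). No GALNT4 isoform had a full-length read in testis of either breed, and 4 reads were found in all libraries.

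**Figure D5:**
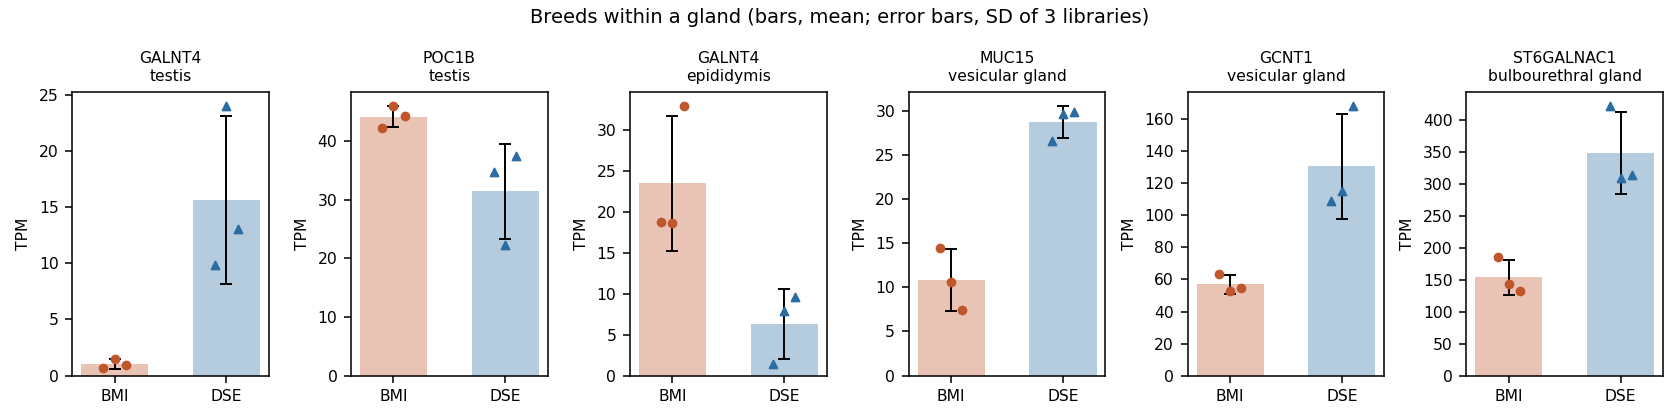
TPM of named genes in BMI and DSE libraries of 1 gland each (bars, mean; error bars, SD of 3 libraries; points, libraries). GALNT4 is higher in DSE testis and POC1B, which overlaps it, is lower there (44.2 against 31.5 TPM), while GALNT4 in epididymis has BMI above DSE.

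In epididymis 0 members and 0% of all genes were called by limma, and 3 members and 290 genes (1.9%) had an unadjusted p below 0.05. GALNT4 had the opposite order there, with 18.8, 18.7 and 33.0 TPM in BMI and 1.46, 7.84 and 9.55 TPM in DSE (-1.95, SE 0.61). GALNT3 was also lower in every DSE library, 0.154, 3.03 and 2.31 TPM against 7.45, 5.92 and 10.9 TPM (-1.83, SE 0.54). Neither was called (adjusted p = 0.99987 for both). Without DSE epididymis 1, which had the lowest level of both and the lowest transcript integrity, the differences were -1.29 (GALNT4) and -1.28 (GALNT3). Over all libraries 5.29% of all genes tested did not overlap between the breeds.

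In vesicular gland 0 members were called by limma (0.882% of all genes), and 6 had an unadjusted p below 0.05, beside 18.5% of all genes. MUC15 was at 14.5, 10.6 and 7.46 TPM in BMI and at 26.6, 29.7 and 29.9 TPM in DSE (1.37, SE 0.30, adjusted p = 0.0600). GCNT1 was at 63.5, 52.7 and 54.5 TPM in BMI and at 109, 115 and 168 TPM in DSE (1.16, SE 0.28, adjusted p = 0.0869). Neither pair of groups overlapped, as in 27.9% of all genes tested in this gland. The median difference of all genes was -0.42, and both genes passed the threshold with size factors (adjusted p = 0.0267 and 0.0422). With size factors 153 of all genes were called, against 111 as deposited. In Iso-seq, both had more reads in DSE than in BMI vesicular gland, 100 against 33 for MUC15 and 747 against 173 for GCNT1.

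In prostate gland 0 members were called by limma (0.358% of all genes), and 3 had an unadjusted p below 0.05, beside 33.5% of all genes. GALNT3 (4.29 ± 0.553 TPM in BMI and 7.77 ± 1.22 TPM in DSE, 0.72, adjusted p = 0.0865) and GALNT4 (23.6 ± 8.02 and 40.3 ± 5.8 TPM, 0.79, adjusted p = 0.102) were higher in each DSE library than in any BMI one, as 39.8% of all genes tested were in either direction. The median difference of all genes was itself 0.39 here, and with size factors GALNT3 differed by 0.34 and GALNT4 by 0.35. Without BMI prostate gland 2, ST3GAL4 was called lower in DSE (-1.28, adjusted p = 0.0309). That fit called 942 of all genes, against 48 with all 6 libraries. In bulbourethral gland 0 members were called by limma (0.0878% of all genes), and 1 had an unadjusted p below 0.05, beside 5.24% of all genes. ST6GALNAC1 was at 185, 144 and 132 TPM in BMI and 423, 310 and 314 TPM in DSE (1.18, SE 0.24, adjusted p = 0.250), without overlap, as in 10.7% of all genes tested. GALNT10 was at 36.7 ± 2.84 and 49 ± 14.1 TPM (0.38, SE 0.25). The MUC5B locus overlapped between the breeds (0.87, SE 0.43, adjusted p = 0.99961).

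Whether the breed difference itself varied among glands was tested across all 30 libraries, where 2.6% of genes passed. GALNT4 (adjusted p = 0.000406), GALNT3 (adjusted p = 0.0191) and GALNT14 (adjusted p = 0.0436) passed. For GALNT14 this restates the testis difference, which was not called by itself (adjusted p = 0.231), since the gene was near 0 in the other glands and could show no breed difference there. DSE was higher in testis and lower in epididymis for GALNT4. For GALNT3, each BMI library was above each DSE one in testis (53.5, 63.7 and 49.7 against 36.6, 14.8 and 45.2 TPM) and epididymis, and the reverse held in prostate gland. GALNT14 was at 31.1, 29.6 and 25.3 TPM in BMI and 18.1, 3.81 and 9.73 TPM in DSE testis, and at most 0.272 TPM in the other glands. The lowest testis level of both genes was in DSE testis 2, the library with the low germ cell and high Leydig cell markers. Without it the testis difference of GALNT3 was -0.43 instead of -0.90 and that of GALNT14 -1.05 instead of -1.57, while all 3 genes still passed (adjusted p = 0.00647 for GALNT3, 0.0018 for GALNT4 and 0.0295 for GALNT14). The part of cell makeup in these differences was not tested. With a pseudocount of 0.1 or with size factors, 1 of the 3 genes passed, and without the 3 libraries holding vesicular gland transcripts GALNT14 no longer did (adjusted p = 0.0708).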

How the data were processed

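RNA-seq values were deposited as TPM, which the authors obtained with Salmon 1.9.0 from an annotation merging Ensembl and Iso-seq transcripts on Sscrofa11.1 (susScr11). Iso-seq values were deposited by the authors as counts of full-length reads per isoform, without normalization. The submitters' processing notes also list GSNAP 2018-07-04, STAR 2.7.10a and Bowtie 1.3.1. The labels name ribosomal RNA depletion where the paper names poly-T beads. The 30 small RNA libraries were not used here.

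TPM was summed by gene for the 30 RNA-seq libraries and used as log2(TPM + 1), with genes of at least 1 TPM in at least 3 libraries. Glands were compared in 1 limma fit of all 30 libraries (each gland against the mean of the other 4), and breeds in 1 fit per gland. Full-length reads have exact Poisson 95% intervals. The design planned pairwise gland fits, an interaction test and the alternatives described under the processing heading. Genes were called with an adjusted p below 0.05 and a log2 difference of at least 1. Members and lists were chosen with earlier results of these data known.

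Named genes were tested mucins, per gland up to 6 higher and 3 lower called members without overlap, breed calls or the 2 largest non-overlapping differences, the leading member of each role, and up to 3 pathway genes. Others are named as parts of counts. Joined entries, the RefSeq-placed loci, the sum of GALNT4 and POC1B, and the fits without libraries that stood apart were added after seeing the data. The scripts were tested on simulated data. Software was Python 3.11.15, pandas 2.3.3, NumPy 2.4.6, SciPy 1.17.1, matplotlib 3.10.9, R 4.3.3 and limma 3.58.1.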

Additional observations from a re-analysis of the deposited data

Results flagged for a closer look

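For 3 members the difference between the breeds varied among glands by a limma F test over the 30 libraries, as for 2.6% of all genes tested. They were GALNT4 (adjusted p = 0.000406), GALNT3 (adjusted p = 0.0191) and GALNT14 (adjusted p = 0.0436). With a pseudocount of 0.1 or with size factors, GALNT4 alone still passed. GALNT4 was higher in DSE in testis (2.95) and lower in DSE in epididymis (-1.95), and the sum of GALNT4 and the overlapping POC1B differed by 0.06 in testis. GALNT3 differed by -1.83 in epididymis and 0.72 in prostate gland. GALNT14 differed by -1.57 in testis (-1.05 without DSE testis 2, which had low germ cell markers) and was at most 0.272 TPM in the other glands, where no breed difference could appear, so its result restates a testis difference that was not called by itself (adjusted p = 0.231).

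Full-length reads that join ST3GAL1 with a neighbouring noncoding gene carry their own gene label and were outside the comparisons of the report. They numbered 50 in BMI and 117 in DSE bulbourethral gland, where isoforms labelled ST3GAL1 alone had 1 and 0 reads. With the joined entries added, ST3GAL1 ranged from 81.5 through 124 to 215 TPM in bulbourethral gland (log2 difference 3.78), and in prostate gland it ranged from 14.4 through 62.8 to 93.4 TPM and was called higher (2.29), which it was not alone.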

How the results depend on the processing

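For 54 values of named genes, 1830 alternative values were computed, of which 1773 kept direction and side of the threshold, 18 passed it newly, 31 lost it and 8 reversed. Reversed values were GCNT4 in testis (-0.49), ST6GALNAC4 in epididymis (-0.11) and vesicular gland (0.043) and B3GNTL1 in bulbourethral gland (0.31) with Ensembl transcripts alone, ST6GALNAC4 in vesicular gland with size factors (0.60), GCNT1 in prostate gland without BMI prostate gland 2 (-0.46, in a leave-one-out range of -0.46 to 0.64) or without the 3 libraries holding vesicular gland transcripts (-0.32), and ST3GAL4 in prostate gland without those 3 (0.081). With Ensembl transcripts alone, called members were 6 higher in testis, 11 lower in vesicular gland, 3 lower in prostate gland and 0 between breeds in testis, and 1 pathway gene in vesicular gland and 4 sugar nucleotide genes in bulbourethral gland were higher. A pseudocount of 0.1 gave 11 higher members in epididymis, 12 lower in bulbourethral gland, 8 higher pathway genes in testis and 1 breed difference varying among glands. Size factors gave 5 higher pathway genes and 2 breed calls in vesicular gland, 1 breed difference varying among glands, and role sums in vesicular gland of 146 (B3GNT), 598 (GALNT), 171 (GCNT), 36.3 (mucins), 22.9 (ST3GAL) and 136 TPM (ST6GALNAC) and in prostate gland of 459 TPM (GALNT). No filter gave 0 breed calls in testis. One fit of all 30 libraries gave 3 breed calls in testis, where it called 943 of all genes, and 2 in epididymis, where it called 140. Leaving out the 3 libraries gave 1 in prostate gland, where 942 of all genes were called. With joined entries added, ST3GAL sums were 114 TPM in prostate gland and 587 TPM in bulbourethral gland, the GCNT sum in bulbourethral gland was 12.3 TPM, and full-length reads in BMI and DSE were 1225 and 1899 in vesicular gland, 1402 and 955 in prostate gland and 2102 and 1577 in bulbourethral gland, and 4257 in BMI epididymis. The cause of the other shifts was not tested.

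Replicate numbers were not taken to pair the samples, since the labels do not say whether they mark animals. Deviations of same-numbered libraries correlated at -0.55 to 0.37 between breeds of a gland (4 of 15 pairs over 0.1). Between glands of a breed they correlated at -0.30 to 0.39 (21 of 60 pairs over 0.1, median 0.04), against 18 of 120 differently numbered pairs (median -0.03). Pairs over 0.1 were thus more frequent among same-numbered glands of a breed. Whether these came from the same animals was not tested. A replicate block gave 2 breed calls in vesicular gland, MUC15 (adjusted p = 0.0277) and GCNT1 (adjusted p = 0.0335). It called 675 of all genes tested there, against 111 without the block. Under the block GALNT14 no longer passed the test of a breed difference varying among glands (adjusted p = 0.0571). Leaving out each library in turn gave 5 (without BMI epididymis 3) to 11 (without BMI epididymis 2) lower members in epididymis, 4 (without DSE bulbourethral gland 2) to 9 (without DSE bulbourethral gland 3) lower in bulbourethral gland, 0 (without any BMI library) to 1 breed calls in testis and 0 to 1 (without BMI prostate gland 2) in prostate gland. TPM keeps no depth, so the precision of low RNA-seq values is unknown.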

Other observations

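GALNT8, a GALNT gene that was not tested because it reached 1 TPM in only 2 libraries, was at 66.8 TPM in BMI epididymis 2 and 113 TPM in DSE epididymis 3 and at most 0.199 TPM in the other 4 epididymis libraries. MUC6, a gel-forming mucin, was at 13.1 TPM in DSE epididymis 1 and at most 0.575 TPM in the other 5. ST6GALNAC1 was at 28.8 and 40.3 TPM in BMI epididymis 2 and DSE epididymis 3, the libraries with GALNT8, and at 0.704 to 2.08 TPM in the other 4. The membrane mucin locus MUC1 had another order, with 211, 15.9 and 367 TPM in BMI and 5.42, 112 and 55.4 TPM in DSE epididymis, so that it was lowest in the 2 libraries with the highest MUC15. These are values of single libraries, chosen after they were seen and without a test.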
